A study of Mus musculus with 9 samples.

Results

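The Frizzled receptor genes were followed in the midbrain of mouse fetuses at E13.5 in which Gpr161 had been deleted in the Wnt1 lineage. They are the 10 genes whose symbols run from Fzd1 to Fzd10, taken by symbol from a table with 21356 distinct gene names. All 10 were among the 14029 genes expressed highly enough to be tested. RNA had been sequenced from 9 midbrain libraries on the C57BL/6 background, 3 for each of 3 genotypes. The floxed control was Gpr161 f/f without a Cre transgene, the Cre control was Gpr161 f/+;Wnt1-Cre, and the cKO was Gpr161 f/f;Wnt1-Cre (spelled Gpt161 in the sample labels). Every genotype therefore carried at least 1 floxed allele of Gpr161, and both Cre groups carried the Wnt1-Cre transgene. This transgene places Cre under control elements of Wnt1, which act in part of the midbrain neuroepithelium and in the neural crest, so each dissected midbrain also held cells in which no recombination was to be expected. Each library is named here by its genotype and its replicate number. Whether a library held 1 fetus or several is not given in the sources used here, and p-values measure the spread between these libraries.

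Frizzled receptors are membrane proteins that bind secreted Wnt proteins through a cysteine-rich extracellular domain. With the co-receptors Lrp5 and Lrp6 they recruit Dishevelled and stabilize beta-catenin, and with Celsr and Vangl proteins they orient cells in the plane of an epithelium. In the embryonic midbrain, Wnt1 from the dorsal midline and the midbrain-hindbrain boundary is needed for the growth and patterning of the tissue, and the Frizzleds are its receptors. By sequence the genes fall into the subfamilies Fzd1, Fzd2 and Fzd7, Fzd3 and Fzd6, Fzd5 and Fzd8, Fzd9 and Fzd10, and Fzd4 on its own.

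Most of these genes are compact. In the GENCODE annotation of GRCm38, the principal transcripts of Fzd1, Fzd2, Fzd7, Fzd8, Fzd9 and Fzd10 have 1 exon, those of Fzd4 and Fzd5 have 2, and those of Fzd3 and Fzd6 have 7. Fzd9 lies at chr5:135248938-135251230 on the minus strand, and its transcript of 2293 bases is the shortest of the family and the richest in G and C (62.19%). Fzd2 lies at chr11:102604396-102608058 (plus strand), Fzd1 at chr5:4753839-4758035 (minus), Fzd7 at chr1:59482424-59486955 (plus) and Fzd6 at chr15:39006034-39038188 (plus). Fzd3 lies at chr14:65192449-65262463 (minus), and its transcript of 12734 bases is the longest and the poorest in G and C (40.27%). The intervals of Fzd3, Fzd5 and Fzd6 overlap other annotated genes on the opposite strand, and that of Fzd3 also overlaps one on the same strand. The labels and methods do not say whether strand was used. Fzd6 stands in 2 rows of the table with equal values and was counted as 1 gene.

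Promoter windows of 300 bases around the RefSeq start (GRCm38.p6) could be matched for 6 of the 10 genes, Fzd1, Fzd4, Fzd5, Fzd7, Fzd9 and Fzd10. The stretches upstream of the start are printed 5′ to 3′ for 3 of them, because Fzd9 has the largest difference described in the next paragraphs and because Fzd1 and Fzd7 are close relatives with differences of opposite sign. Capitals mark the letters of 3 common promoter motifs, each searched on both strands. They lie at chr5:135251231-135251297 (minus strand), chr5:4758217-4758466 (minus) and chr1:59481897-59482146 (plus), in the order in which they are printed.
Fzd9: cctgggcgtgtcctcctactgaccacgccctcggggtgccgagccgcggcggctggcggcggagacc
Fzd1: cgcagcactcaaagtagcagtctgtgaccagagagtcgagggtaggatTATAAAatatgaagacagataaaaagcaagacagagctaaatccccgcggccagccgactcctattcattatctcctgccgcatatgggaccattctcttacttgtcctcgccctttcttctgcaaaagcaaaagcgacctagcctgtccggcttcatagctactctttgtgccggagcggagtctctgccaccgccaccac
Fzd7: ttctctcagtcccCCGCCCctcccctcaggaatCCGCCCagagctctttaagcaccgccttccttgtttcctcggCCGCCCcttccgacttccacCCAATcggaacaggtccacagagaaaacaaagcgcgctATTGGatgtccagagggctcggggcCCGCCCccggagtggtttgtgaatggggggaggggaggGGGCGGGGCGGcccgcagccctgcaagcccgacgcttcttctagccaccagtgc
The Fzd7 stretch held 2 CCAAT boxes and 6 GC boxes, the last of which share bases. The Fzd1 stretch held 1 TATA box and none of the other motifs, and the Fzd9 stretch of 67 bases, of which 77.6% were G or C, held none of them. The shares below are over full windows, which are longer than the printed stretches. In its full window Fzd9 had 1 GC box, and Fzd7 had 7. The letters searched for the TATA box were TATAAA, which 13.6% of all 32851 windows of 300 bases held. The CCAAT box was searched by its name and stood in 37.4% of the windows. The GC box, with the letters GGGCGG, stood in 35.7%. The letters of a Gli site (TGGGTGGTC), present in 0.253% of all windows, and of a TCF/LEF site (CTTTGAT, or the same with A as its last letter), present in 8.65%, were found in 0 of the 6 Frizzled windows.

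Gpr161, the targeted gene, did not separate the genotypes in these libraries. The floxed control ranged from 11.74 to 11.80 on the log2 scale, the Cre control from 11.77 to 11.96 and the libraries labelled cKO from 11.74 to 11.95. Neither difference of the cKO passed, with 0.11 (adjusted p = 0.223 by limma) from the mean of the floxed control and 3.3e-04 (adjusted p = 0.998 by limma) from that of the Cre control. Over 17 alternatives the former ran from 0.068 to 0.18 and passed in 2, without cKO replicate 1 and with a correction for GC content and length (adjusted p down to 0.0301 by limma). Gene-level values do not separate the floxed exon from the rest of the transcript, so the check of the label is not decisive, and every direction given for the cKO is that of the libraries labelled so. Wnt1 rose in the groups with the transgene, from a log2 value of 9.19 ± 0.091 (SD, n = 3) in the floxed control to 10.94 ± 0.065 in the Cre control, and stood at 10.65 ± 0.13 in the cKO. Of 12 markers of midbrain identity, such as En1 and Otx2, all 12 passed the filter on low values and 0 were at 0. No read counts came with the values, so the depth is unknown.

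All Frizzled genes were expressed in the midbrain, and their levels differed widely. To compare genes with each other, the log2 values were turned into linear values and divided by the transcript length in kb. The sources do not say whether the deposited values had been divided by length already, and they were taken as not divided. In the floxed control, Fzd10, a receptor of the dorsal neural tube, had the highest level, with 1048 ± 107 (SD, n = 3) linear units per kb. Fzd1 followed with 720 ± 26.6, Fzd3 with 628 ± 28.0 and Fzd2 with 514 ± 26.3. Fzd7 (227 ± 7.24) and Fzd9 (221 ± 9.20) were next to each other, and their libraries overlapped. Fzd8 (65.1 ± 1.29) and Fzd6 (61.9 ± 5.04) overlapped as well. Fzd4 (38.8 ± 4.37) and Fzd5 (9.16 ± 0.506) were lowest, and no other pair of neighbours in this order overlapped.

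In the cKO, Fzd10 was again highest with 994 ± 40.7 (SD, n = 3) linear units per kb, and the order behind it differed. Fzd2 stood next with 660 ± 22.3, before Fzd1 with 632 ± 34.3 and Fzd3 with 611 ± 33.2, and the libraries of these neighbours overlapped. Fzd9, at 310 ± 7.76, lay above Fzd7, at 252 ± 8.01, without overlap. Fzd6, at 82.5 ± 1.94, lay above Fzd8, at 58.9 ± 1.96, also without overlap. The Cre control kept the order of the floxed control except within both overlapping pairs, with Fzd2 at 571 ± 28.3 and Fzd9 at 230 ± 13.0.

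The summed level of the 10 genes was 3533 ± 123 linear units per kb in the floxed control (SD, n = 3), beside 3630 ± 45.9 in the Cre control and 3653 ± 98.6 in the cKO, and the ranges of the libraries overlapped between all groups. No test was made of it. Within this sum, the share of Fzd2 was 14.6%, 15.8% and 18.1% in floxed control, Cre control and cKO. That of Fzd9 was 6.26%, 6.33% and 8.49% in the same order, and that of Fzd1 was 20.4%, 20.3% and 17.3%. If the deposited values had been divided by length already, they would have to be compared as they stand. Fzd3 would then be highest in each genotype, with 7993 ± 357 (SD, n = 3) linear units in the floxed control, before Fzd10 with 3407 ± 349. Fzd9 (710 ± 17.8) would stay below Fzd7 (1143 ± 36.3) in the cKO, and Fzd2 (2417 ± 81.7) below Fzd1 (2651 ± 144). The shares of Fzd2 would be 10.01%, 10.8% and 12.7% in floxed control, Cre control and cKO, those of Fzd9 2.69%, 2.73% and 3.74%, and those of Fzd1 16.1%, 16.0% and 14.0%. The plot of levels per transcript length shows the order of the genes in each genotype.

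**Figure D1:**
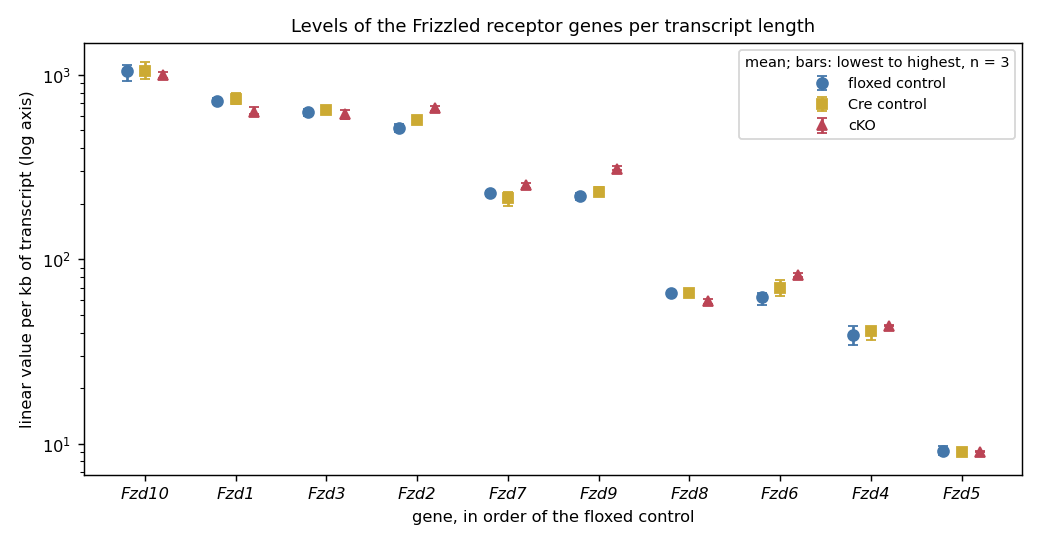
Linear value per kb of transcript (log axis) of the 10 Frizzled genes in the order of the floxed control; symbols are genotype means and bars run from the lowest to the highest of 3 libraries. Fzd10 is highest in each genotype and Fzd5 lowest, and in the cKO Fzd9 and Fzd2 lie above both controls.

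The comparison of the cKO with the floxed control asks what changes with the deletion and the transgene together. Fzd9, Fzd6 and Fzd2 rose and Fzd1 and Fzd8 fell, by less than 1.5-fold each. Against the background of all genes, of which 38.3% passed an adjusted p under 0.05 by limma in this comparison (19.5% higher, 18.8% lower), 5 of 10 Frizzleds (3 higher, 2 lower) is close to the share over all genes. With a correction for GC content and length, 7 Frizzleds passed, 6 higher and 1 lower, where Fzd3, Fzd4 and Fzd7 were added as higher and Fzd8 was lost. Under the same correction 2743 of 13901 genes were higher and 2650 lower. With a fold over 1.5 required as well, 0 Frizzleds passed, beside 2.92% of all genes. The values of 7 of the 10 did not overlap between the groups, 5 higher and 2 lower in the cKO, beside 57.1% of all genes (29.9% higher, 27.3% lower). The median log2 difference of the 10 was 0.061, and that of all genes tested 0.011. In bulk tissue, fewer cells of a type and less RNA per cell cannot be told apart.

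The comparison with the Cre control holds the transgene equal and leaves 1 against 2 floxed alleles of Gpr161. Fzd9, Fzd7 and Fzd2 rose and Fzd1 fell. These are 4 of 10 genes (3 higher, 1 lower), where 9.72% of all genes passed the adjusted p (4.86% higher, 4.85% lower). The values of 7 of the 10 again did not overlap, 5 higher and 2 lower, beside 31.5% of all genes (17.8% higher, 13.7% lower). The median log2 difference of the 10 was 0.056, and that of all genes 0.012. When 1 library at a time was left out, between 1 and 4 Frizzleds passed, and 1 passed, Fzd9, without a filter on low values or in a fit of the 6 libraries alone. The calls over all genes moved as well, from 682 higher and 681 lower with all libraries and the filter. They were 140 and 97 without cKO replicate 1, 144 and 102 without Cre control replicate 3, and 1533 and 1759 without Cre control replicate 1. Without the filter they were 434 and 439 of 19549 genes, and in the fit of 6 libraries 225 and 212. The cKO libraries were above all 6 controls for 5 Frizzleds, beside 14.7% of all genes, and below them for 2, beside 11.5%. The 2 comparisons share the cKO libraries and are not independent of each other.

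**Figure D2:**
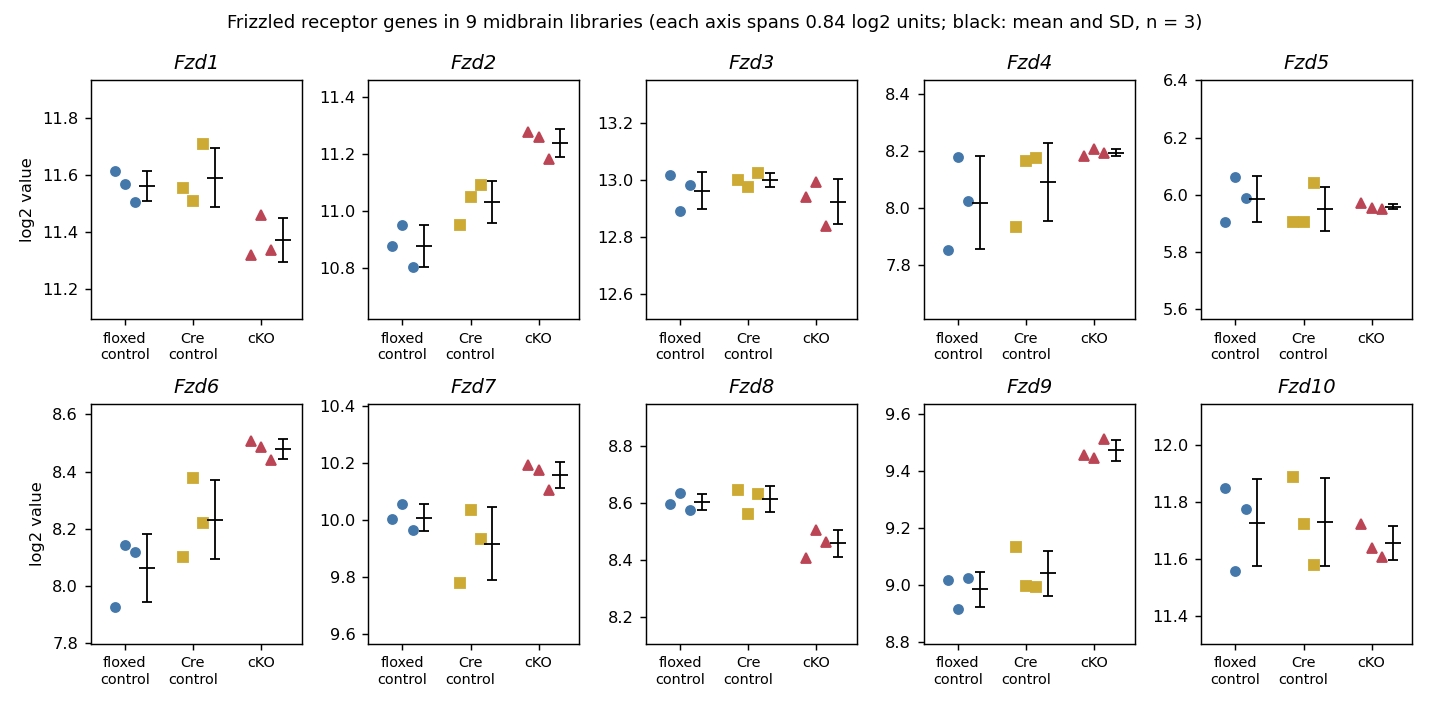
Log2 value of each Frizzled gene in each of the 9 libraries by genotype, with the mean and SD (n = 3) in black and the same span on every axis. The 3 cKO libraries lie above all 6 control libraries for Fzd2, Fzd4, Fzd6, Fzd7 and Fzd9 and below all 6 for Fzd1 and Fzd8.

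Fzd9, a receptor known from the developing hippocampus, had the largest difference of the family in both comparisons. Its log2 values were 9.02, 8.92 and 9.02 in the floxed control, 9.13, 8.99 and 8.99 in the Cre control, and 9.46, 9.45 and 9.51 in the cKO. All 3 cKO libraries were above all 6 controls, whose values overlapped each other. The log2 difference was 0.49 (95% interval 0.36 to 0.61, SE 0.0559, adjusted p = 0.000471 by limma) against the floxed control, a rise of 40.1%. It was 0.43 against the Cre control (95% interval 0.31 to 0.56, adjusted p = 0.00425 by limma), a rise of 34.9%. Both calls held in 17 of 17 alternatives, the omission of each library and the correction for GC content and length included.

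Fzd10, its closest relative and the Frizzled with the highest level per length, did not pass in any comparison. Its log2 values were 11.85, 11.56 and 11.78 in the floxed control, 11.89, 11.72 and 11.58 in the Cre control, and 11.72, 11.64 and 11.61 in the cKO. The 3 groups overlapped. The difference from the floxed control was -0.072 (95% interval -0.27 to 0.12, adjusted p = 0.540 by limma) and that from the Cre control -0.075 (-0.27 to 0.12, adjusted p = 0.600 by limma). Without Cre control replicate 1, the difference from the Cre control was 0.0042.

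Fzd2, which acts with its relatives in neural tube closure and palate formation, rose against both controls. Its log2 values were 10.88, 10.95 and 10.80 in the floxed control, 10.95, 11.05 and 11.09 in the Cre control, and 11.27, 11.26 and 11.18 in the cKO. The cKO libraries were again above all 6 controls, and the Cre control overlapped the floxed control at its lowest library. The log2 difference was 0.36 (95% interval 0.25 to 0.48, adjusted p = 0.00105 by limma) against the floxed control and 0.21 (0.092 to 0.32, adjusted p = 0.0373 by limma) against the Cre control. The first call held in 17 of 17 alternatives. The second held in 10 of 17 (adjusted p between 0.0268 and 0.139), and was lost without floxed control replicate 1 (0.0566), and without each of Cre control replicates 2 and 3 (0.0748 and 0.0690) and cKO replicates 1 and 2 (0.139 and 0.101).

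Fzd7 had the same sign as Fzd2, with a smaller difference from the floxed control. Its log2 values were 10.004, 10.06 and 9.96 in the floxed control, 9.78, 10.04 and 9.93 in the Cre control, and 10.19, 10.18 and 10.11 in the cKO. All cKO libraries were above all controls. The difference was 0.15 against the floxed control (95% interval 0.0086 to 0.29, adjusted p = 0.0873 by limma), which was past the threshold without Cre control replicate 1 (0.0221), with only the 6 libraries compared (0.0237) and with the correction for GC content and length (0.0242). The difference from the Cre control was 0.24 (0.10 to 0.38, adjusted p = 0.0426 by limma), held in 8 of 17 alternatives (0.0202 to 0.150). This call was lost without any 1 of floxed control replicates 1, 2 and 3 (0.0627, 0.0547 and 0.0639), Cre control replicate 3 (0.107) and cKO replicates 1, 2 and 3 (0.150, 0.108 and 0.0622).

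Fzd1, the third of this subfamily and known from heart and palate development together with Fzd2, was lower in the cKO. Its log2 values were 11.61, 11.57 and 11.50 in the floxed control, 11.55, 11.51 and 11.71 in the Cre control, and 11.32, 11.46 and 11.33 in the cKO. The cKO libraries were below all 6 controls, and the highest of them, replicate 2, lay close to the lowest controls. The difference was -0.19 (95% interval -0.32 to -0.057, adjusted p = 0.0296 by limma) against the floxed control and -0.22 (-0.35 to -0.086, adjusted p = 0.0475 by limma) against the Cre control. The first was lost without floxed control replicate 1 (0.103) or 2 (0.0684) or cKO replicate 1 (0.104) or 3 (0.0890). The second held in 5 of 17 alternatives (0.0289 to 0.171). It was lost without floxed control replicates 1, 2 and 3 in turn (0.0632, 0.0654 and 0.0667), Cre control replicates 2 and 3 (0.0555 and 0.142) and cKO replicates 1, 2 and 3 (0.171, 0.0564 and 0.114).

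Fzd6, a planar polarity receptor known from hair orientation, passed against the floxed control and not against the Cre control. Its log2 values were 7.92, 8.14 and 8.12 in the floxed control, 8.10, 8.38 and 8.22 in the Cre control, and 8.51, 8.49 and 8.44 in the cKO. The cKO libraries were above all controls, with a spread below that of either control. The difference was 0.42 (95% interval 0.24 to 0.60, adjusted p = 0.00359 by limma) against the floxed control, in 17 of 17 alternatives. It was 0.25 against the Cre control (0.067 to 0.43, adjusted p = 0.0798 by limma), which passed in 0 of 17.

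Fzd3, the partner of Fzd6 in neural tube closure and a receptor for axon guidance, had the highest log2 value of the family before division by length. It was 13.02, 12.89 and 12.98 in the floxed control, 13.00, 12.98 and 13.03 in the Cre control, and 12.94, 12.99 and 12.84 in the cKO. The groups overlapped. The difference was -0.039 (95% interval -0.15 to 0.071, adjusted p = 0.558 by limma) against the floxed control and -0.076 (-0.19 to 0.034, adjusted p = 0.327 by limma) against the Cre control. With each library corrected for GC content and transcript length these became 0.11 (adjusted p = 0.0307 by limma) and 0.047 (adjusted p = 0.367 by limma), so no direction can be given for Fzd3.

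Fzd8 and Fzd5, which act together in the developing retina, stood low in the order of levels. Fzd8 had log2 values of 8.60, 8.63 and 8.58 in the floxed control, 8.65, 8.56 and 8.63 in the Cre control, and 8.41, 8.50 and 8.46 in the cKO. The cKO libraries of Fzd8 were below all controls. Its difference was -0.14 (95% interval -0.26 to -0.032, adjusted p = 0.0453 by limma) against the floxed control and -0.15 (-0.27 to -0.042, adjusted p = 0.0797 by limma) against the Cre control. The first held in 7 of 17 alternatives (0.0287 to 0.198). It was lost with no filter on low values (0.0516), with the correction for GC content and length (0.198), without Cre control replicate 3 (0.0619), without floxed control replicates 1, 2 and 3 in turn (0.0959, 0.116 and 0.0786) and without cKO replicates 1, 2 and 3 in turn (0.146, 0.0585 and 0.0893).

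Fzd5, the Frizzled with the lowest level, had log2 values of 5.90, 6.06 and 5.99 in the floxed control, 5.90, 5.90 and 6.04 in the Cre control, and 5.97, 5.95 and 5.95 in the cKO. The cKO values lay inside the range of both controls. The differences were -0.026 (95% interval -0.16 to 0.11, adjusted p = 0.752 by limma) and 0.0087 (-0.12 to 0.14, adjusted p = 0.939 by limma). The deposited values were read as shrunk at low expression, which would understate a fold of this gene and of others with low levels.

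Fzd4, the receptor for Norrin in blood vessels of the retina and brain, had log2 values of 7.85, 8.18 and 8.02 in the floxed control, 7.93, 8.16 and 8.18 in the Cre control, and 8.18, 8.21 and 8.19 in the cKO. The cKO libraries were at the upper end of both controls and just above them. The difference was 0.18 (95% interval -0.024 to 0.37, adjusted p = 0.147 by limma) against the floxed control and 0.10 (-0.097 to 0.30, adjusted p = 0.473 by limma) against the Cre control. Without floxed control replicate 2 the first was 0.26 (adjusted p = 0.0475 by limma). With the correction for GC content and length it was 0.24 (adjusted p = 0.0394 by limma).

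**Figure D3:**
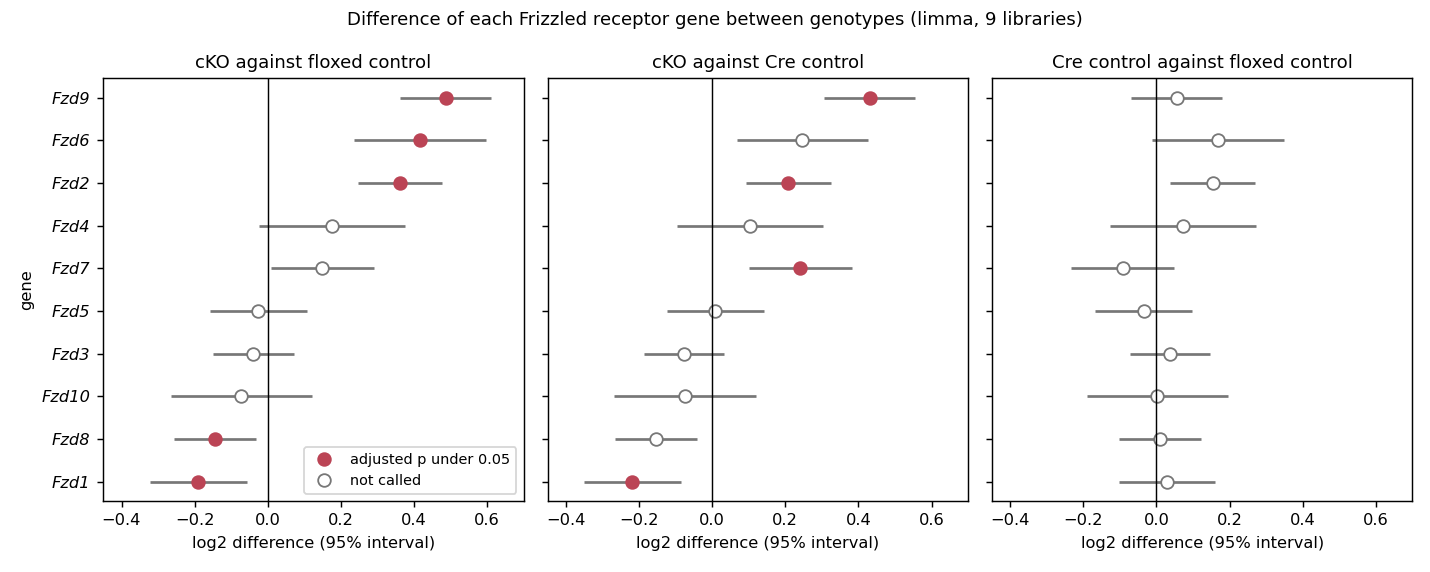
Log2 difference of each Frizzled gene with its 95% interval in 3 comparisons between genotypes; filled points passed an adjusted p under 0.05 (limma). Fzd9 has the largest difference against both controls, and no Frizzled gene passed between the controls.

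The Cre control differs from the floxed control in the transgene and in 1 floxed allele, and 0 of 10 Frizzleds passed limma's adjusted p between them, beside 0.057% of all genes. At an unadjusted p under 0.05, 1 passed, where 17.5% of all genes did. It was Fzd2, with a log2 difference of 0.15 (95% interval 0.038 to 0.27, adjusted p = 0.204 by limma). Fzd6 had a difference of 0.17 (95% interval -0.011 to 0.35, adjusted p = 0.308 by limma), and the other 8 lay between -0.092 and 0.072. The values of all 10 overlapped between the controls, where 22.8% of all genes did not overlap. The upper ends of the intervals of Fzd2 and Fzd6 lay above their differences between cKO and Cre control.

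Fzd2 and Fzd7 were called in the direction opposite to their relative Fzd1, and the balance within each subfamily was measured as the difference of log2 values in the same library, which does not depend on the scaling of the library. For Fzd2 minus Fzd1 it was -0.74, -0.61 and -0.70 in the floxed control, -0.60, -0.46 and -0.62 in the Cre control, and -0.045, -0.20 and -0.15 in the cKO. The Fzd2 value was thus nearer to that of Fzd1 in each cKO library than in any control. The balance moved by 0.55 from the floxed control and by 0.43 from the Cre control. Fzd2 lay above and Fzd1 below all 6 controls, so the absence of overlap follows from the values of the genes themselves and adds no support to them.

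Fzd7 minus Fzd1 moved by 0.34 and 0.46 against the 2 controls, and the same holds for its lack of overlap. The other pairs were compared by a two-sided exact permutation test, which with 3 libraries against 3 has 20 arrangements, gives p = 0.1 at the least and so could not reach a p under 0.05. Fzd2 minus Fzd7 was 0.87 ± 0.028 (SD, n = 3) in the floxed control, and it was 1.11 ± 0.087 in the Cre control and 1.08 ± 0.0033 in the cKO. This balance was higher in both Cre groups than in the floxed control. Between the controls it moved by 0.25 (exact permutation test, p = 0.1, the least it can give). The cKO overlapped the Cre control with a change of -0.033 (exact permutation test, p = 0.4). Fzd9 minus Fzd10 moved by 0.56 and 0.51, and Fzd6 minus Fzd3 by 0.46 and 0.32, without overlap. In both pairs the members' own ranges leave no overlap whichever libraries are paired, so its absence adds no support to them. Fzd5 minus Fzd8 moved by 0.12 and 0.16, also without overlap (p = 0.1 for each, exact permutation test).

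**Figure D4:**
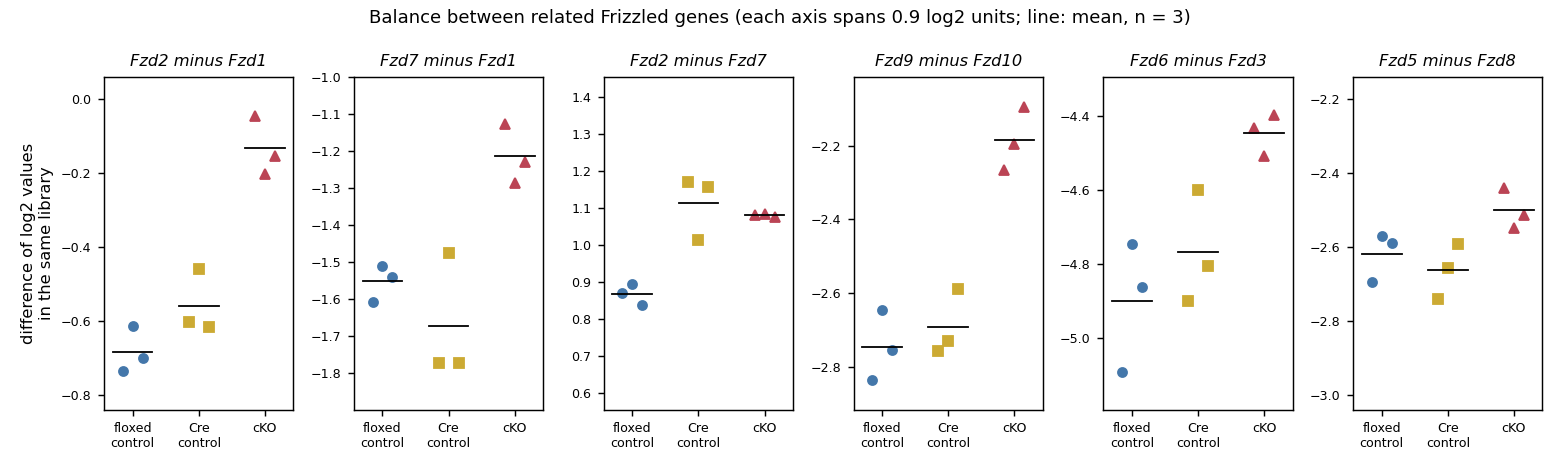
Difference of the log2 values of related Frizzled genes within the same library, by genotype, with a line at the mean of 3 libraries and the same span on every axis. The cKO libraries lie above both controls in each panel except Fzd2 minus Fzd7, where they overlap the Cre control.

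The genes whose profile over the 9 libraries, centred on the floxed control mean, lay nearest to that of Fzd9 were Sox1, a transcription factor of neural progenitors, H2-Ke6 and Vrk2, with root mean square differences of 0.0577, 0.0605 and 0.0617 on the log2 scale. Sox1 differed by 0.44 from the floxed control and by 0.41 from the Cre control, H2-Ke6 by 0.42 and 0.33, and Vrk2 by 0.40 and 0.31. For Fzd2 the nearest were P4hb, an enzyme of protein folding in the endoplasmic reticulum, Pqlc3 and Swap70, at 0.0261, 0.0373 and 0.0381. P4hb differed by 0.36 and 0.22 from the floxed and the Cre control. All these genes were chosen for their likeness over the same libraries. Their similar differences follow from that choice and add no support to those of the Frizzleds.

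Markers of several cell types moved with the genotypes in which the Frizzleds differed. The 12 neural progenitor markers, such as Sox2 and Nes, summed to 3918 to 4095 cpm, counted on the linear values, in the floxed control, 4028 to 4361 in the Cre control and 4463 to 4848 in the cKO. Of them, 8 rose and 0 fell against the floxed control, and 4 rose against the Cre control. The 12 neuronal markers, such as Tubb3 and Dcx, summed to 5814 to 6222, 4632 to 5551 and 4006 to 4481 cpm in the same order, and 12 of 12 fell against the floxed control, with 4 that also fell against the Cre control. The summed levels of both lists were thus outside the range of both controls in the cKO, as were the 7 Frizzleds without overlap, and the part of progenitors and neurons in the differences of the Frizzleds was not tested.

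Some markers of other tissues in the dissection were also called, in numbers to be read beside the same shares. The 12 markers of meninges and head mesenchyme summed to 1412 to 2378 cpm in the floxed control, 1786 to 2698 in the Cre control and 2610 to 2759 in the cKO, with 8 higher and 1 lower against the floxed control and 0 higher and 1 lower against the Cre control. The 12 endothelial markers, the cells in which Fzd4 is best known, summed to 280 to 366, 313 to 386 and 364 to 389 cpm, with 6 higher and 1 lower against the floxed control and 0 called against the Cre control. The 8 pericyte markers summed to 366 to 406, 358 to 416 and 404 to 433, with 2 higher than in the floxed control and 1 higher than in the Cre control. The 10 erythroid markers summed to 5642 to 9632, 6732 to 7925 and 8724 to 16718, with 6 and 4 higher. None of the markers in these lists was at 0 in all libraries, and their part in the values of the Frizzleds was not tested.

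The remaining lists are of cells that the dissection may hold and of midbrain and neighbouring regions. Their counts, too, stand beside these shares over all genes. The 10 markers of microglia and macrophages summed to 137 to 172, 158 to 171 and 154 to 181 cpm, with 1 higher against the floxed control. The 6 of choroid plexus summed to 211 to 651, 152 to 339 and 156 to 216, with a median log2 difference of -0.23 from the floxed control, and 0 were called by limma in the comparisons of the cKO. Of 8 markers of neural crest glia, 5 were tested and 1 was higher against the floxed control. Of 12 markers of neighbouring brain regions, 10 were tested, with 1 higher and 4 lower. The 12 markers of midbrain identity summed to 888 to 1031, 955 to 1047 and 905 to 956, with 2 higher and 4 lower against the floxed control and 2 higher against the Cre control.

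The other genes of the pathway were taken from 8 lists with 94 genes, of which 88 were tested and 7 stand in more than 1 list. Against the floxed control, 38 rose and 9 fell, with a median log2 difference of 0.15, beside 0.061 for the Frizzleds and 0.011 for all genes. The shares over all genes in this comparison were 19.5% higher and 18.8% lower. In the comparison with the Cre control, 9 rose and 3 fell, with a median of 0.069, where 4.86% of all genes rose and 4.85% fell. The counts of the single lists below are to be read beside the same shares. Between the controls 1 rose, Wnt1, by 1.75 on the log2 scale (adjusted p = 3.47e-06 by limma). Between 31 and 51 of the 88 passed against the floxed control with 1 library left out, 31 of them without floxed control replicate 3. This count ran from 5 without Cre control replicate 3 to 25 without Cre control replicate 1 in the comparison with the Cre control. It was 6, 6 and 7 without cKO replicates 1, 2 and 3 in turn.

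Of 17 Wnt ligands tested, 10 rose and 0 fell against the floxed control, with a median difference of 0.26. They were led by Wnt1 (1.46, adjusted p = 1.72e-05 by limma), Wnt9b (1.21, adjusted p = 0.000285), Wnt10a (0.74, adjusted p = 0.00101) and Wnt6 (1.12, adjusted p = 0.00103). Against the Cre control, Wnt9b rose by 0.88 (adjusted p = 0.00613 by limma) and Wnt1 fell by 0.28 (adjusted p = 0.0373 by limma). The fall of Wnt1 held in 9 of 17 alternatives (0.0300 to 0.145) and was lost without floxed control replicate 1 or 3, without Cre control replicate 2 or 3, and without cKO replicate 1 or 3.

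Of 7 co-receptors and other receptors tested, 5 rose against the floxed control and 0 passed against the Cre control (limma). Smo, which shares the Frizzled fold and transmits Hedgehog signals, rose by 0.33 (adjusted p = 0.000937 by limma), Ryk by 0.25 (0.00127), Lrp5 by 0.34 (0.00571) and Ror2 by 0.33 (0.0279). Smo is not a Wnt receptor, and it is counted in this list and in the totals of the pathway. The call of Ror2 was lost without floxed control replicate 3 or cKO replicate 1 or 2 (0.00910 to 0.102 over its alternatives). Of 4 partners of Fzd4, Adgra2, needed with Reck for Wnt7 signals in brain endothelium, rose by 0.53 (adjusted p = 0.0195 by limma). It was lost without floxed control replicate 1 or 3 or cKO replicate 2 (0.00269 to 0.0782). Reck differed by 0.26 (adjusted p = 0.204 by limma), Ndp, which encodes Norrin, by -0.031 and Tspan12 by -0.014.

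Of 10 genes that control how much Frizzled reaches or stays at the cell surface, 4 rose against the floxed control and 0 passed against the Cre control (limma). Znrf3 and Rnf43, ubiquitin ligases that remove Frizzleds from the membrane, differed by 0.20 (adjusted p = 0.0358 by limma) and 0.35 (adjusted p = 0.0190 by limma). Shisa2 and Shisa3, which retain Frizzleds in the endoplasmic reticulum, differed by 0.25 (adjusted p = 0.0181 by limma) and 0.37 (adjusted p = 0.0248 by limma). Each of the 4 calls was lost without floxed control replicate 3. Znrf3 was also lost without every other floxed control and cKO library in turn and with the libraries centred on their medians or quantile-normalized (adjusted p up to 0.107). Rnf43 was also lost without cKO replicate 3 (up to 0.0741). Without floxed control replicate 1 or cKO replicate 2, Shisa2 and Shisa3 were lost (up to 0.0708 and 0.0847), and Shisa3 also without cKO replicate 3. The R-spondins Rspo1, Rspo2 and Rspo3 and their receptors Lgr4, Lgr5 and Lgr6 did not pass in either comparison.

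Of 14 secreted inhibitors and Frizzled-related proteins tested, 6 rose and 1 fell against the floxed control, while 3 rose and 1 fell against the Cre control. Draxin, an antagonist of Wnt signals and an axon guidance factor, fell by 0.69 (adjusted p = 0.000127 by limma) in the first comparison and by 0.49 (0.00160) in the second. Kremen2, a receptor for Dkk proteins, rose by 0.71 (adjusted p = 0.000305 by limma) and 0.29 (0.0361). The latter held in 8 of 16 alternatives and was lost without any 1 of the cKO libraries, floxed control replicates 1 and 3, and Cre control replicate 3 (up to 0.135). Notum, which removes the lipid from Wnt proteins, rose by 0.82 (adjusted p = 0.00153 by limma) and 0.79 (0.0111), and Kremen1 rose against the floxed control by 0.35 (adjusted p = 0.000920 by limma).

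Downstream of the receptors, 4 of 18 genes of the Dishevelled and beta-catenin cascade rose and 6 fell against the floxed control, with a median of -0.041. Tcf7l1 rose by 0.50 (adjusted p = 0.000395 by limma), Tcf7 by 0.47 (0.00113) and Dvl2 by 0.19 (0.00461), and Pygo1 fell by 0.26 (0.00394). A rise against the Cre control was called for 2. Of 13 known targets of beta-catenin, 8 rose and 0 fell against the floxed control, among them Sp8 by 0.73 (adjusted p = 0.000479 by limma), Dkk1 by 0.31 (0.00253) and Nkd1 by 0.24 (0.00601). Against the Cre control, 3 rose and 1 fell, and the median of the list was -0.0024. Sp8 was among those that rose (0.59, adjusted p = 0.00676 by limma). The gene that fell was Axin2 (-0.14, adjusted p = 0.0477 by limma). Nkd1 differed by -0.0024 (adjusted p = 0.983 by limma) and Dkk1 by 0.17 (adjusted p = 0.0812 by limma). Of 12 core genes of planar cell polarity, 4 rose and 2 fell against the floxed control, with Celsr1 higher by 0.34 (adjusted p = 0.00580 by limma) and Scrib by 0.19 (0.00814). Vangl1 was higher by 0.32 (0.0162), a call lost without floxed control replicate 3 or cKO replicate 2 (up to 0.0660), and Celsr3 fell by 0.44 (adjusted p = 0.00741 by limma). Celsr1, which brings Fzd6 to cell borders, was the only gene of this list that passed against the Cre control, by 0.32 (adjusted p = 0.0271 by limma). It was lost there without each of Cre control replicates 2 and 3 and cKO replicates 1 and 2 (up to 0.0693).

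**Figure D5:**
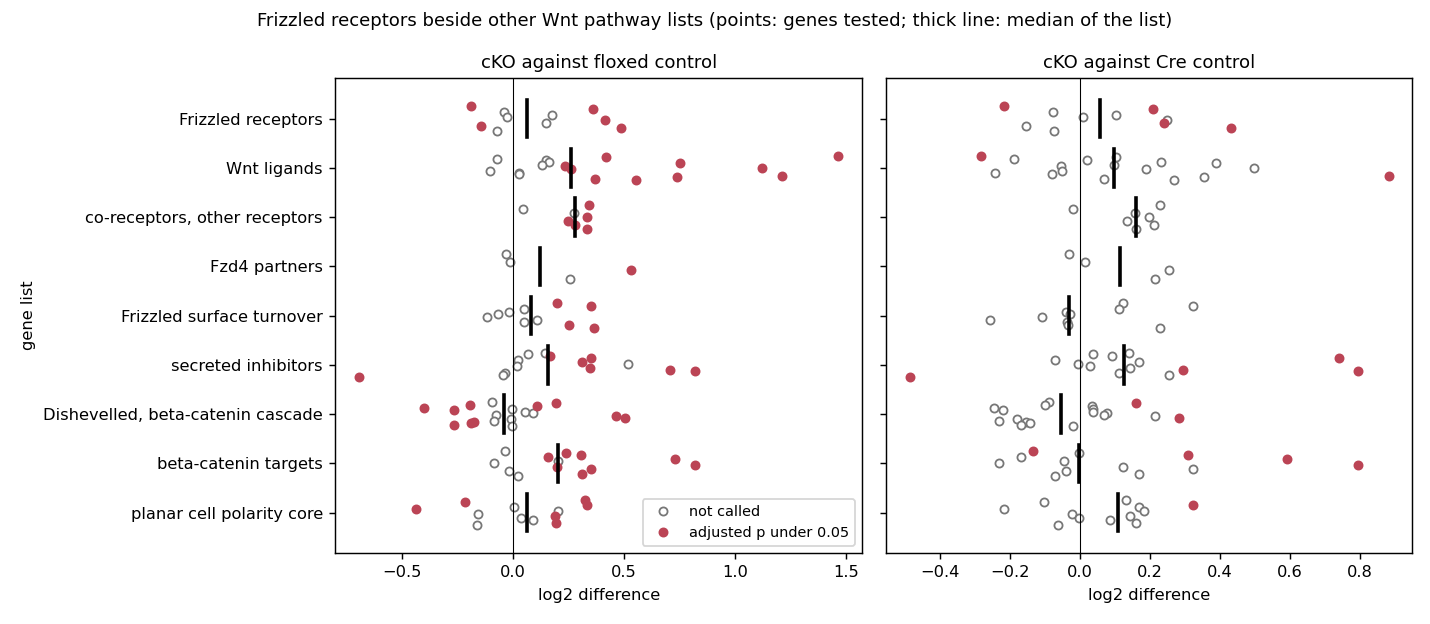
Log2 difference of each tested gene in the Frizzled family and 8 other lists of the Wnt pathway, for the cKO against each control, with a thick line at the median of the list; filled points passed an adjusted p under 0.05 (limma). The Frizzled medians, 0.061 and 0.056, lie near 0, with genes called on both sides.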

How the data were processed

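Midbrain tissue of C57BL/6 fetuses at E13.5 had been dissected, and RNA was extracted with Trizol and a column, selected for poly-A and sequenced on an Illumina HiSeq instrument. The authors deposited 1 table of log2 values for 27360 rows in 9 libraries. The values are scaled alike between libraries and were read as compressed where expression is low. The submitters' processing notes name FastQC 0.10.1, kallisto 0.46.1, DESeq2 and mm10, and the transformation is not given in the sources used here. Without read counts the depth is unknown and counting intervals cannot be stated. Linear values, 2 raised to the deposited value, summed to between 26605102 and 27491808 in a library.

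Rows without a name (5764) and 240 rows of repeated names were left out, the row with the highest mean being kept. Genes with at least 1 cpm on the linear scale in at least 3 libraries (log2 4.73 to 4.78) were tested. A mean per genotype was fitted to all 9 libraries with limma 3.58.1 (R 4.3.3, eBayes with a trend), two-sided, with Benjamini-Hochberg adjustment over all 14029 genes. On simulated data with 200 genes changed by 0.5 on the log2 scale, between 86% and 89% were recovered, with 4 to 11 false calls. This change is larger than every Frizzled difference, so the recovery of differences as small as theirs was not measured. Differences within a subfamily, chosen after the values were seen, were compared by exact permutation tests. Their p is printed only where the members' own values had not fixed the outcome. Members and gene lists were chosen with earlier results of these data known. Named were all Frizzleds, Gpr161, Wnt1, up to 4 genes of each list with the smallest adjusted p against the floxed control, genes of a list called between the controls, and the 3 nearest profiles for the 2 Frizzleds with the smallest p. The R-spondins, the Lgr genes and Axin2 were named after their values were seen. Positions and lengths came from GENCODE M21 and promoter windows from RefSeq. Alternatives changed the filter, the libraries fitted, the scaling, the variance model, the call rule, the replicate block and the transcript length, and corrected for GC content and length, known for 13901 genes (99.09%).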

Additional observations from a re-analysis of the deposited data

How the results depend on the processing

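Fzd9 kept its call against both controls, and Fzd2 and Fzd6 theirs against the floxed control, in 17 of 17 alternatives. With 1 library left out, the number of Frizzleds called ran from 3 to 6 for cKO against floxed control, from 1 to 4 for cKO against Cre control and from 0 to 0 between the controls. For the other 88 genes of the pathway these numbers ran from 31 to 51, from 5 to 25 and from 1 to 3. Over all genes, calls against the floxed control ran from 1834 up and 1772 down without cKO replicate 1 to 3383 and 3169 without Cre control replicate 1. Against the Cre control they ran from 140 and 97 to 1533 and 1759 without the same libraries. With a fold over 1.5 required, 0 Frizzleds passed in either cKO comparison, and 9 and 4 pathway genes did. Against the Cre control, 1 Frizzled passed with no filter on low values and 1 with only the 6 libraries compared, where 6 pathway genes passed. Over all genes, 434 rose and 439 fell without the filter, and 225 rose and 212 fell with the 6 libraries. Without a trend in eBayes, 2 pathway genes passed between the controls. The cause of these changes was not tested. The longest transcript was the one already used for every Frizzled, so this alternative could not change the levels. Without division by length, added after seeing the data, the Frizzleds of the floxed control summed to 18823 linear units. With the libraries centred on their medians, the split of all genes called against the Cre control was 532 up and 831 down, beside 682 and 681. With the replicate number as a block, 4 Frizzleds passed for cKO against floxed control, 3 for cKO against Cre control and 0 between the controls, Fzd8 (adjusted p = 0.0631 by limma) and Fzd1 (adjusted p = 0.0595 by limma) being lost in turn. With this block, 2898 of all genes rose and 2785 fell against the floxed control, and 846 rose and 928 fell against the Cre control. After removal of genotype means, same-numbered libraries correlated between -0.0272 and 0.26 (median 0.102) and others between -0.282 and 0.161 (median -0.0526), and not every library correlated best with its own number, so the replicate numbers were not taken as pairs. Fzd5 could not be fitted under the filter of 5 cpm, which it does not pass.

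Some differences near 0 changed sign. Corrected for GC content and length, Fzd3 was at 0.11 and Fzd5 at 0.029 in cKO against floxed control, and Fzd3 at 0.047 in cKO against Cre control. With libraries centred on their medians, Fzd5 (-0.0011) and Gpr161 (-0.0095) did so against the Cre control and Fzd10 (-0.0028) between the controls, as did Fzd8 under quantile normalization (-0.0066). With 1 library left out, the ranges that crossed 0 were, in cKO against floxed control, -0.075 to 0.0038 for Fzd3, -0.067 to 0.013 for Fzd5, -0.086 to 0.026 for Ndp and -0.054 to 0.039 for Tspan12. In cKO against Cre control they were -0.014 to 0.054 for Fzd5, -0.15 to 0.0042 for Fzd10 and -0.054 to 0.071 for Gpr161. In the comparison of the controls they were -0.030 to 0.069 for Fzd1, -0.011 to 0.15 for Fzd4, -0.080 to 0.0040 for Fzd5, -0.0066 to 0.036 for Fzd8 and -0.082 to 0.078 for Fzd10.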
